A study of Caenorhabditis elegans with 2 samples.

Results

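Respiratory complex I, the NADH:ubiquinone oxidoreductase, is the entry point of electrons into the mitochondrial respiratory chain. It oxidises NADH in a peripheral arm that carries flavin and iron-sulfur clusters, passes the electrons to ubiquinone at the junction with the membrane arm, and pumps protons through the membrane arm. Its subunits come from nuclear genes and from the mitochondrial genome, and in C. elegans knock-down of some complex I subunits is known to induce the mitochondrial unfolded protein response, in which DVE-1, a homeodomain protein, takes part. The genes described here are 10 nuclear complex I genes, nuo-1, nuo-2, nuo-3, nuo-4, nuo-5, nuo-6, gas-1, lpd-5, nduf-7 and nduf-2.2, of 19973 nuclear protein-coding genes in the annotation. They were chosen by name and function, and all 10 were found in Ensembl release 115 on WBcel235, the sequence of the ce11 build.

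DVE-1 binding was measured with ChIP-seq, the sequencing of DNA that is precipitated together with a protein, in late embryos of 1 hermaphrodite strain, OP398, with the genotype unc-119(tm4063) III; wgIs398. Its stable transgene expresses DVE-1 with a GFP-FLAG tag at the C terminus, so the tagged protein and not the endogenous one was precipitated, with an antibody to GFP, from sonicated chromatin of whole animals. There was 1 group with 2 biological replicates, and the lists name the same control alignment for both. The authors' peak lists were a thresholded list of 1447 peaks, filtered by them for reproducibility (IDR), a pooled list of 30000 peaks from the reads of both replicates, and lists of 11568 peaks for replicate 1 and 15750 for replicate 2.

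Each peak has a signal, the authors' own enrichment value, which is read here only within a list, and a summit. The pooled list held signals between 19.1 and 917, the median being 26.7, and the weakest thresholded peak had 78.9. All 1447 thresholded peaks were also pooled peaks, so those 2 lists are not independent. The replicate lists and the pooled list were made as input to the IDR step and hold background as well as peaks. The lists give no read totals, so depth per library is unknown and no counting interval can be given. The promoter window of a gene took in the 1000 bp before and the 200 bp after its annotated 5′ end, and a gene was counted when a summit lay in it. In whole embryos the peaks do not say in which cells the tagged protein was bound, and RNA was not measured here. The gene dve-1 itself (chromosome X, 427035 to 433812, minus strand) had 0 summits in its window in any of the 4 lists, the nearest pooled summit being 17365 bp upstream.

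The sequences below are the 201 bp centred on the summit for the 2 members with a thresholded peak and for 2 further complex I subunit genes with one. They are reference sequence of WBcel235, shown 5′ to 3′ on the strand of the named gene, to let a reader see what lies under the peaks that carry the result. Capitals mark matches on either strand to the motifs searched that occur in these windows (GAGAGA at ndub-8 and CTGCGTCTC, also at ndub-8), and 2 runs picked after the sequences were seen. These are TGCGCCTTTAA, the longest run with any G or C shared by 2 thresholded complex I windows, and CGCGTCGCACGC, the longest repeat within 1 of them. The windows are chrII:11097431-11097631 (plus strand) for nuo-1, chrIII:6464271-6464471 (plus) for nduf-2.2, chrIII:2528699-2528899 (plus) for ndua-8 and chrII:13872566-13872766 (plus) for ndub-8.
nuo-1: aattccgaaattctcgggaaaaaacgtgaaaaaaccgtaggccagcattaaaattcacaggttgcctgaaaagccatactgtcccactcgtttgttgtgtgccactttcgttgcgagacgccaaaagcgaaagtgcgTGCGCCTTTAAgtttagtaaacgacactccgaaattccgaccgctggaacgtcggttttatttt
nduf-2.2: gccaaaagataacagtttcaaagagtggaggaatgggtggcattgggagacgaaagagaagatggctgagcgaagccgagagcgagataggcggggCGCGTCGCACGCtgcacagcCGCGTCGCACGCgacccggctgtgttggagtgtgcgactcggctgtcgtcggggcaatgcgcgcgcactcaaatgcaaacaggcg
ndua-8: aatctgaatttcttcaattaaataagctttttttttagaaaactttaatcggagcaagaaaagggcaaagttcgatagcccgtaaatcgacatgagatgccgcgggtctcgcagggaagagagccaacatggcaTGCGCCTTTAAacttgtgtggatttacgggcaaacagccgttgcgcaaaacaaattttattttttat
ndub-8: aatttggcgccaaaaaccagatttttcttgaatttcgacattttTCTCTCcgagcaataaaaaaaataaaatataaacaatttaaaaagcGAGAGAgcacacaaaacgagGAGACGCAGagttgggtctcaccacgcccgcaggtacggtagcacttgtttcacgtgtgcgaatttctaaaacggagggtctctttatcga

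DVE-1-GFP peaks of the thresholded list lay in the promoter windows of 2 of the 10 complex I genes, nuo-1 and nduf-2.2. Of all 19973 genes 4.33% had one (865 genes), and with only 10 members 1 gene more or fewer moves their share by 10 percentage points. The members' 2 genes both encode catalytic core subunits in the peripheral arm. So do nuo-5, gas-1, nduf-7 and nuo-2, which had no thresholded summit. The accessory subunits among the members are left out of this comparison. Of the 2, nuo-1 belongs to the NADH-oxidising part and nduf-2.2 to the ubiquinone-reducing part. Neither summit reached the thresholded list's median signal of 110, and both were shared with the window of another gene on the opposite strand. The remaining 8 members had no thresholded summit in their windows.

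In the NADH-oxidising part, nuo-1 (C09H10.3, chromosome II, 11097837 to 11100146, plus strand) encodes the flavoprotein that takes electrons from NADH, the counterpart of human NDUFV1. Its summit lay 306 bp upstream of the 5′ end with a pooled signal of 103, rank 849 of 1447 in the thresholded list and 849 of 30000 in the pooled list. Replicate 1 had a summit 271 bp upstream with a signal of 59.4, rank 389 of 11568. Replicate 2 had one 306 bp upstream with a signal of 47.8, rank 1450 of 15750. Both replicates thus held a peak at the same place, and nuo-1 was the member with the highest signal in the pooled list and in replicate 1. The summit fell in an exon of the non-coding RNA C09H10.13, transcribed from the opposite strand, and 17 bp upstream of another, C09H10.11. It also lay 327 bp upstream of rpl-36.A, a gene for a protein of the large ribosomal subunit that is transcribed away from nuo-1, so that nuo-1 was the nearer protein-coding gene by a small margin.

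The iron-sulfur protein of the same part, nuo-5 (Y45G12B.1, chromosome V, 2698972 to 2706984, plus strand), the counterpart of human NDUFS1, had no summit in its window in any of the 4 lists. It was the only member without one in all of them. Its nearest pooled summit lay 1762 bp upstream with a signal of 32.9, rank 9157 of 30000, and replicate 2 had one at the same place with a signal of 17.8. The nearest summit of replicate 1 was 4376 bp upstream. The gene begins 104 bp after the end of Y45G12B.2, a zinc finger protein gene on the same strand. Worm genes this close together on 1 strand are often transcribed as an operon from the first gene's promoter, although the annotation used here does not mark operons. The 5′ end of Y45G12B.2 lies 4201 bp upstream of that of nuo-5, and a pooled summit stood 179 bp before it with a signal of 57.8, rank 2697 of 30000. Replicate 1 had a summit there with a signal of 29.2 and replicate 2 one with 27.5.

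In the ubiquinone-reducing part, gas-1 and nduf-2.2 are paralogs. Their coding sequences were identical at 79.7% of 1416 aligned bases, with a longest identical run of 37 bp. The 1000 bp upstream of their 5′ ends, each read on the strand of its gene, shared no run longer than 12 bp. Runs on opposite strands were not compared. Only nduf-2.2 of the pair had a thresholded summit, and this difference between 2 genes was not tested.

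The nduf-2.2 gene (T26A5.3, chromosome III, 6465222 to 6467206, plus strand) had its summit 851 bp upstream with a pooled signal of 85.2, rank 1250 of 1447 in the thresholded list. Replicate 1 had a summit at the same base with a signal of 21.6, rank 4585 of 11568, and replicate 2 one 847 bp upstream with 63.2, rank 818 of 15750. The peak recurred in both lists at almost the same base, but it was among the 1447 strongest peaks of replicate 2 and not of replicate 1. It was the member with the highest signal in replicate 2. The summit lay in an exon of the non-coding RNA T26A5.10 and 592 bp upstream of dlc-1, a dynein light chain gene transcribed the other way, whose 5′ end was nearer than that of nduf-2.2.

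The gas-1 gene (K09A9.5, chromosome X, 15586786 to 15590397, minus strand), in which mutants are known for reduced respiration and sensitivity to volatile anaesthetics, had the weakest pooled summit of the 8 members with one. It lay 429 bp upstream with a signal of 21.6, rank 23838 of 30000. It was also 542 bp upstream of usp-33, a ubiquitin hydrolase gene on the other strand, and 99 bp upstream of the non-coding RNA K09A9.9. No peak of either replicate overlapped it. Replicate 1 had a separate summit 139 bp downstream of the 5′ end, in gas-1 coding sequence, with a signal of 15.5, rank 11197 of 11568. Replicate 2 had none within the window, and its nearest was 5302 bp downstream.

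Of the other iron-sulfur subunits of this part, nduf-7 (W10D5.2, chromosome I, 9108173 to 9110918, minus strand), the counterpart of human NDUFS7, had the highest pooled signal below the threshold. Its summit lay 51 bp upstream with 40.7, rank 5564 of 30000, and a second stood 948 bp upstream with 26.6. Replicate 1 had a summit 31 bp downstream with a signal of 15.6, rank 10998 of 11568, and replicate 2 summits 64 bp upstream with 24.1 and 893 bp upstream with 16.8. With nuo-1 and nduf-2.2, nduf-7 was 1 of 3 members whose pooled peak was overlapped in both replicates, and no other protein-coding gene's window held its summits.

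The nuo-2 gene (T10E9.7, chromosome I, 6530131 to 6531963, minus strand), the counterpart of human NDUFS3, had no pooled summit in its window, and the nearest was 9543 bp upstream. Replicate 1 alone had one, 167 bp upstream with a signal of 20.8, rank 5037 of 11568, in the 3′ UTR of T10E9.14. That gene, for a protein with a K homology domain, ends 19 bp before nuo-2 on the same strand. No summit of any list lay in the window of T10E9.14's own 5′ end, 1108 bp upstream.

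The 4 accessory subunits among the members, which surround the catalytic core, had no thresholded summit in their windows. The lpd-5 gene (ZK973.10, chromosome I, 4372255 to 4373018, minus strand), the counterpart of human NDUFS4, had a pooled summit 165 bp upstream with a signal of 26.3, rank 15526 of 30000. Replicate 1 had one 177 bp upstream with 17.5, and replicate 2 had none in the window, its nearest being 1153 bp upstream. The pooled summit was also 473 bp upstream of cec-10, a chromodomain gene on the other strand.

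The nuo-3 gene (Y57G11C.12, chromosome IV, 14796419 to 14797544, minus strand), the counterpart of human NDUFA6, had a pooled summit 61 bp upstream with a signal of 36.8, rank 7007 of 30000. Replicate 2 had one 45 bp downstream, in its 5′ UTR, with 22.3, and replicate 1 had none in the window. The pooled summit also lay in the windows of arl-8, a small GTPase gene on the other strand 544 bp away, and of a BRICK1 gene annotated inside nuo-3 on the same strand. The nuo-6 gene (W01A8.4, chromosome I, 7068116 to 7069186, minus strand), the counterpart of human NDUFB4, had a pooled summit 378 bp upstream with 26.3, rank 15590 of 30000. That position is inside an intron of tofu-5, a gene of 21U-RNA biogenesis on the other strand. It lay in the window of tofu-5 as well, 124 bp downstream of its 5′ end, which was nearer than that of nuo-6. Replicate 2 had another summit 807 bp upstream of nuo-6, in tofu-5 coding sequence, with 17.9. Neither replicate had a peak that overlapped the pooled one.

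The nuo-4 gene (K04G7.4, chromosome III, 7156026 to 7158809, minus strand), the counterpart of human NDUFA10, had a pooled summit 553 bp upstream with a signal of 39.4, rank 5984 of 30000, in an intron of rnp-7. Replicate 2 had one 548 bp upstream with 24.0, rank 5879 of 15750, and replicate 1 had none in the window. The rnp-7 gene, for the U1 snRNP 70K protein, ends 102 bp before nuo-4 on the same strand and follows syf-2, a splicing factor gene, so that nuo-4 is the last of 3 closely spaced genes. A thresholded summit lay 357 bp upstream of syf-2, which is 3663 bp upstream of nuo-4. Its pooled signal was 113, rank 684 of 1447 in the thresholded list, with 70.2 in replicate 1, rank 242 of 11568, and 47.7 in replicate 2, rank 1454 of 15750. The pooled signal was higher than any pooled signal in the windows of the 10 genes, while in replicate 2 nduf-2.2 and nuo-1 had higher ones. The summit also lay 240 bp upstream of K04G7.1, a gene on the other strand, which was the nearer of the pair. Another thresholded summit stood 2938 bp downstream of the nuo-4 5′ end, beyond the 3′ end of the 2784 bp gene, with a signal of 102.

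**Figure D1:**
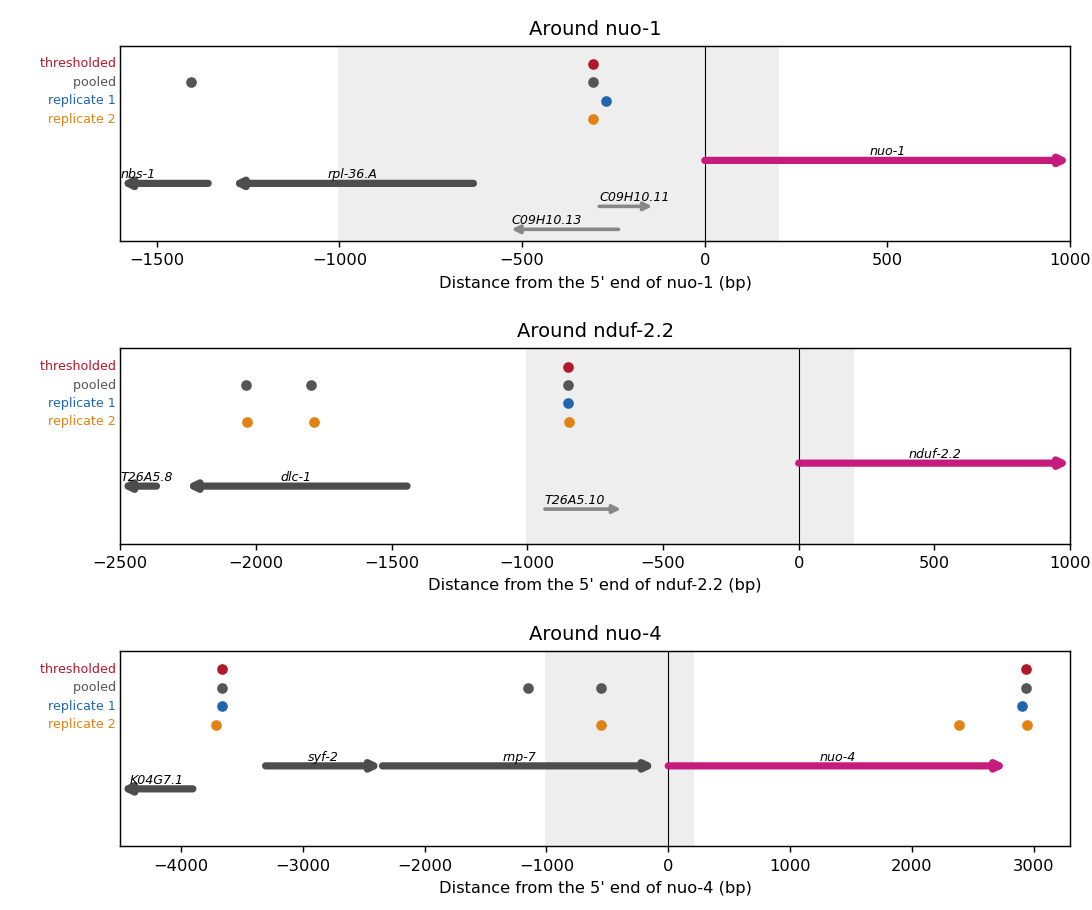
Maps of the DVE-1-GFP summits of each list (dots, 1 row per list) and annotated genes (arrows in the direction of transcription; thin grey arrows are non-coding RNAs, magenta the named member) by distance from the 5′ end of nuo-1, nduf-2.2 and nuo-4, with the promoter window shaded. The nuo-1 summit lies between nuo-1 and rpl-36.A, the nduf-2.2 summit lies nearer to dlc-1, and the thresholded summits near nuo-4 lie 3663 bp upstream and 2938 bp downstream, outside its window.

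When the first gene of such a run of same-strand genes with gaps of at most 200 bp stood for the member, a choice made after the positions were seen, 3 of the 10 had a thresholded summit, nuo-1, nduf-2.2 and nuo-4. All genes counted in that way gave 5.45%. The gaps say only that the genes are close; whether nuo-4, nuo-5 and nuo-2 are transcribed from the upstream promoters was not tested.

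**Figure D2:**
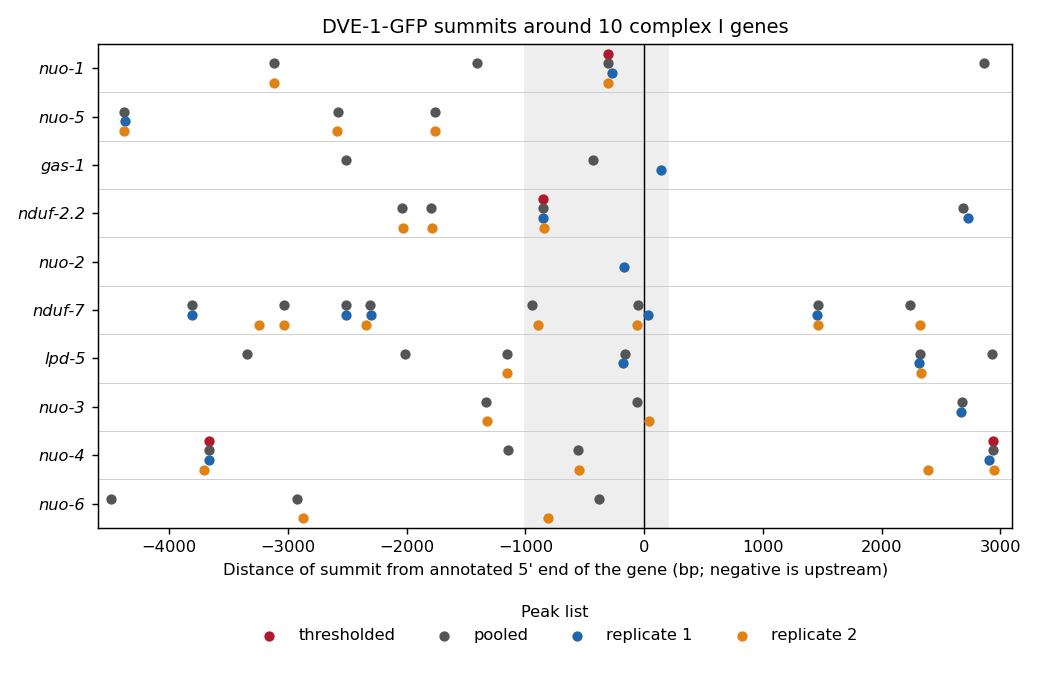
Distance of each DVE-1-GFP summit from the annotated 5′ end of the 10 genes in bp, negative upstream, with 1 colour per peak list and the promoter window shaded. Thresholded summits lie in the window of nuo-1 and nduf-2.2, nuo-5 has no summit in the window, and nuo-2 has only a replicate 1 summit.

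At the edge of the window, the outermost summits inside it were that of nduf-2.2 at 851 bp and the second nduf-7 summit at 948 bp upstream. The nearest upstream of it in the pooled list were at 1149 bp for nuo-4, 1153 bp for lpd-5, 1329 bp for nuo-3 and 1406 bp for nuo-1. Over all gene windows with a thresholded summit the median distance was 265 bp upstream, with quartiles of 148 and 475 bp. The nuo-1 summit was within these quartiles and the nduf-2.2 summit was farther out. Of the 639 thresholded summits in any window, 216 (33.8%) lay in the windows of 2 or more genes, as both members' summits did. Within 500 bp upstream and 100 bp downstream nuo-1 alone was counted, against 3.29% of all genes. Within 2000 bp upstream and 500 bp downstream the same 2 members, nuo-1 and nduf-2.2, were counted, against 6.19%. When each summit counted only for the gene with the nearest 5′ end within 2000 bp, nuo-1 was kept and nduf-2.2 gave way to dlc-1, against 4.67% of all genes.

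A pooled summit, weak ones included, lay in the windows of 8 of the 10 members, all but nuo-2 and nuo-5, against 41.5% of all genes. The 8 strongest summits per gene ran from 21.6 at gas-1 to 103 at nuo-1. With the 2 genes without a summit taken as lowest, the members' median was 31.6; over the 8 alone it was 38.1, against 32.1 over the 8286 genes of the genome with a pooled summit. The latter medians describe genes that had a summit, not whole groups. The signals of lpd-5, nuo-6 and gas-1 were below the median of all pooled peaks, 26.7, and those of nuo-3, nuo-4 and nduf-7 stood between that median and the threshold.

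**Figure D3:**
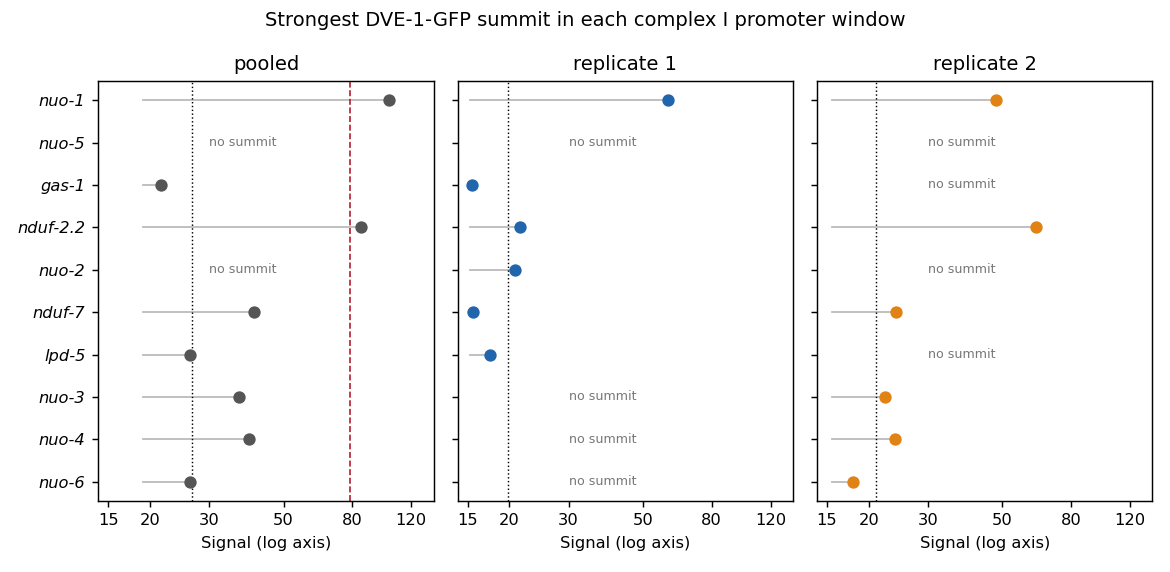
Signal (log axis) of the strongest summit in the window of each of the 10 genes in the pooled, replicate 1 and replicate 2 lists, with lines from the lowest signal of the list, dotted lines at its median and a dashed line at the weakest thresholded peak. In the pooled list nuo-1 (103) and nduf-2.2 (85.2) lie past the dashed line of 78.9, and the next is nduf-7 at 40.7.

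Replicate 1 had summits in the windows of 6 members, gas-1, lpd-5, nduf-2.2, nduf-7, nuo-1 and nuo-2, against 22.5% of all genes. Replicate 2 also had them in 6, nduf-2.2, nduf-7, nuo-1, nuo-3, nuo-4 and nuo-6, against 26.8%. The 2 sets shared 3 genes, nuo-1, nduf-2.2 and nduf-7, so that 3 of 10 members had a summit of both replicates in the window, against 16.2% of all genes. The others divided into 3 seen in replicate 1 alone, 3 seen in replicate 2 alone, and nuo-5, seen in neither. Of all 19973 genes, 1252 were seen in replicate 1 alone, 2103 in replicate 2 alone and 13378 in neither. Of the 8 members' strongest pooled peaks, 4 were overlapped by a replicate 1 peak, 5 by a replicate 2 peak and 3 (37.5%) by both. Over all 30000 pooled peaks these shares were 38.7%, 50.7% and 24.7%. The sets are unlike, since the members' peaks were the strongest in each window, with a median signal of 38.1. All pooled peaks had a median of 26.7. The weak summits at gas-1 and nuo-6 had no overlapping peak in either replicate.

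The 2 thresholded calls stood at different ranks in the 2 replicates. Among the 1447 strongest peaks of replicate 2, used in place of the thresholded list, nduf-2.2 alone of the members was counted; nuo-1, at rank 1450, fell 3 ranks short, and 4.16% of all genes were counted. Among the 1447 strongest of replicate 1, nuo-1 alone was counted, against 4.32% of all genes. No member had a summit among the 1447 strongest peaks of both lists. The share of all genes with a summit in both sets was not counted, so the absence is not read as a trait of the members.

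**Figure D4:**
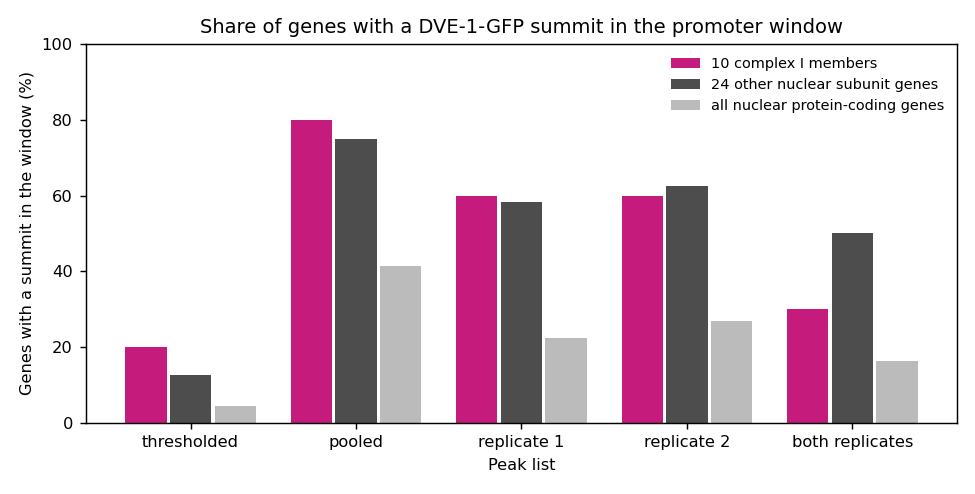
Share of genes (%) with a DVE-1-GFP summit in the promoter window in each list and in both replicate lists, for the 10 members, 24 other nuclear complex I subunit genes and all nuclear protein-coding genes. For the members the bars stand at 20, 80, 60, 60 and 30%, and for all genes at 4.33, 41.5, 22.5, 26.8 and 16.2%.

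A list of 24 other nuclear subunit genes was written by hand and is not complete. It missed nduf-11, described under other observations, which also had a thresholded summit. The thresholded list was itself filtered for reproducibility. When its peaks also had to be overlapped in both replicates, 4.28% of all genes still counted. Of the 24, 3 had a thresholded summit in the window, against the 4.33% of all genes, and the 3 still counted with that overlap. They were nduc-2, counterpart of human NDUFC2, with a summit 796 bp upstream and a signal of 132; ndua-8, counterpart of NDUFA8, 264 bp upstream with 109; and ndub-8, counterpart of NDUFB8, 203 bp upstream with 81.7. Each shared its summit with another gene's window. The nduc-2 summit was 108 bp upstream of Y71H2AM.20 and inside an intron of cox-6B, a cytochrome c oxidase subunit gene. That of ndua-8 was 110 bp upstream of rbc-2, a rabconnectin gene, and 120 bp upstream of Y54F10AM.15. That of ndub-8 was 425 bp upstream of cup-14. The next by pooled signal were nduf-6 with 66.3, ndua-2 with 61.6 and ndab-1 with 53.8, whose summits were shared with nars-1, an asparaginyl-tRNA synthetase gene, with dnj-29 and fld-1, and with npp-16, a nuclear pore gene. A pooled summit lay in 18 of the 24 windows, against 41.5% of all genes, and a replicate 1 summit in 14, against 22.5%. A replicate 2 summit lay in 15, against 26.8%, and summits of both replicates in 12, against 16.2%. The median strongest pooled signal, genes without one taken as lowest, was 31.6 for the 10 members, against 32.96 for these 24 genes. Which of the 2 groups was higher depended on the list, with 20% of members against 12.5% of the others in the thresholded list and 30% against 50% in both replicates, and none of these differences was tested.

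**Figure D5:**
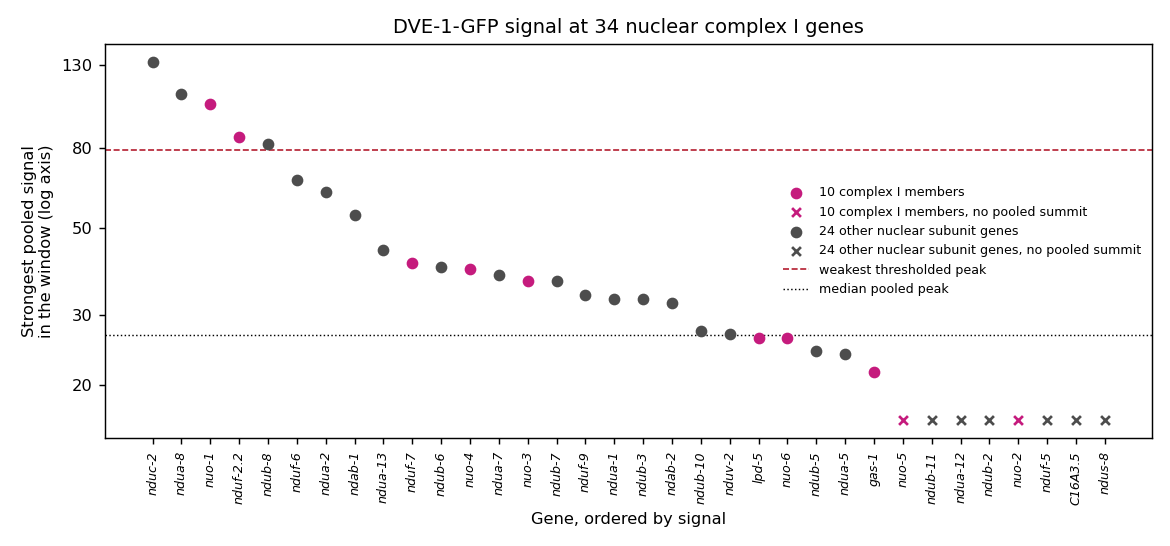
Strongest pooled signal (log axis) in the promoter window of the 10 members (magenta) and 24 other nuclear complex I subunit genes (dark), ordered by signal, with crosses for genes without a pooled summit. The dashed line is the weakest thresholded peak (78.9) and the dotted line the median pooled peak (26.7); 2 members and 3 other genes lie past the dashed line, and members lie along the whole order, from nuo-1 near the top to nuo-5 and nuo-2 without a summit.

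The assembly factor genes nuaf-1 and nuaf-3, whose products help to build the complex without staying in it, had no thresholded summit. A pooled summit lay 82 bp upstream of nuaf-1 with a signal of 47.1, and nuaf-3 had none in its window.

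The 7 complex I genes of the mitochondrial genome, which has no promoter windows of this kind, were compared by summits within the gene. Thresholded summits lay in 2 of them, ND5 with a signal of 559, rank 7 of 1447, and ND1 with 96.2, rank 964, and a pooled summit also lay in ND4 with 45.2. All 7 encode subunits of the membrane arm, with or without a summit. Of the 5 other mitochondrial protein-coding genes, 3 also held a thresholded summit, CYTB with 195, COX3 with 141 and COX1 with 214. Replicate 1 had summits in 5 of the 7, the strongest in ND5 with 271, rank 3 of 11568. Replicate 2 had summits in 0 of the 7, and its list held no mitochondrial peak, against 21 in replicate 1, whose peaks covered 49.1% of the mitochondrial genome. Of the replicate lists, only that of replicate 1 thus held mitochondrial peaks. The pooled list was made from the reads of both, and whether replicate 2 reads added to its mitochondrial signals was not tested. None of the sources used here says how the authors treated mitochondrial reads.

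The members' sequences were searched for 6 motifs. With only 8 windows, their counts were not tested against the shares of all windows given below. Among the 201 bp windows at the 8 strongest pooled summits, TAATTA, a core of many homeodomain binding sites, was in 2, those of nuo-4 and lpd-5, and GAGAGA was in 1, that of nduf-7. The windows of nuo-1 and nduf-2.2 held none of the 6 motifs. CTGCGTCTC, TGATGCAA, GATAAG and the worm telomere repeat TTAGGC in a row of 2 matched no member. TAATTA was in 2.78% of the windows at all 1440 nuclear thresholded summits, 7.68% at all nuclear pooled summits and 11.5% of windows centred 300 bp upstream of all genes. GAGAGA was in 34.9%, 17.4% and 11.9% of these sets. CTGCGTCTC was in 12.4%, 3.11% and 1.47%, TGATGCAA in 0.694%, 0.887% and 0.821%, GATAAG in 8.06%, 11.4% and 8.21%, and the telomere repeat in 18.1%, 2.34% and 0.381%. Outside the members, the ndub-8 window held both CTGCGTCTC and GAGAGA, as its sequence above shows, and those of ndua-8 and nduc-2 held none of the 6. A missing match says only that these letters are not in the window.

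The run TGCGCCTTTAA, common to the nuo-1 and ndua-8 windows, was in 0.694% of all thresholded windows, 0.490% of pooled windows and 0.931% of the windows upstream of all genes. CGCGTCGCACGC stood in the nduf-2.2 window in 2 copies and in no other thresholded window, with 1 of 1440 windows (0.0694%) holding it. The nduf-2.2 window had a GC content of 61.2% and the nuo-1 window 45.3%, against a median of 45.8% over thresholded windows and 33.8% upstream of all genes. At the other members' strongest pooled summits it ran from 25.4% at lpd-5 to 54.7% at nduf-7, against a median of 37.3% over pooled windows.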

How the data were processed

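The deposited lists hold, per peak, a signal, the authors' own value from their peak caller, and a summit offset in bp. The authors called peaks per replicate and on both replicates together and thresholded them by IDR on ce11, per the deposited text descriptions. Aligner, caller, IDR settings and handling of multiply mapped reads were not given in the sources used here. Summits were placed relative to the 5′ ends of Ensembl release 115 genes, ranks were taken within a list, and peaks that shared at least 1 bp counted as overlapped. No test was run. The share of all genes stands beside the main counts of members.

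The members and lists were chosen with earlier results of these data known. The named genes were the 10 members, other subunits with a thresholded summit and up to 3 more by pooled signal, genes sharing a member's summit, the mitochondrial complex I genes and dve-1. The genes nuaf-1 and nuaf-3 formed a separate list. Alternatives covered narrower and wider windows, any annotated 5′ end, the nearest gene, peak intervals, the median signal, each replicate's strongest peaks, peaks in both replicates, stricter overlap and motif windows of 101 bp. The window functions were tested on 200 simulated summits with 0 placed wrongly. Python 3.11.15, numpy 2.4.6, pandas 2.3.3, Biopython 1.88 and matplotlib 3.10.9 were used. Some sequences and gene relations are not reported here.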

Additional observations from a re-analysis of the deposited data

How the results depend on the processing

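The members with a thresholded summit, 2 of 10, stayed 2 with the wide window, any annotated 5′ end, peak intervals and peaks overlapped in both replicates. The shares of all genes with these settings were 6.19%, 4.7%, 4.8% and 4.28%. The members counted were 1 with the narrow window, 1 with the nearest gene only and 0 with peaks at or above the median signal. The shares of all genes were then 3.29%, 4.67% and 2.09%. Using 1 replicate's strongest peaks gave 1 in both cases, from different genes. The shares of all genes were 4.16% without replicate 1 and 4.32% without replicate 2. The other subunits, 3 of 24, were 1 with the nearest gene and 1 above the median signal. They were 3 with each replicate left out, where without replicate 1 nduf-6 took the place of ndub-8. The same shares of all genes stand beside these counts. The share of all genes, 4.33%, was 2.09% above the median signal. The members with a pooled summit, 8 of 10, were 5 above the median signal (26.8% of all genes), 3 with peaks overlapped in both replicates (16% of all genes) and 6 with either replicate left out (26.8% of all genes without replicate 1 and 22.5% without replicate 2), so the share of all genes fell as well. Windows of 101 bp left TAATTA in 1 member window in place of 2; the other motif counts did not change. With a summit within 100 bp in place of overlap, replicate 2 supported 4 of the 8 strongest pooled peaks in place of 5. No paired analysis was possible because both replicates belong to 1 group. With 10 genes and 2 calls, 1 call changes a share by 10 percentage points. Because depth is unknown, whether a missing summit goes with few reads was not tested.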

Other observations

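A further complex I gene outside the lists, nduf-11 (B0491.5, chromosome II, 11343721 to 11345620, minus strand), named by RefSeq as a complex I B14.7 subunit, was noticed after its values were seen. Its thresholded summit lay 201 bp upstream with a signal of 114, rank 656 of 1447. Replicate 1 had a summit 205 bp upstream with 48.8, rank 657 of 11568, and replicate 2 one 147 bp upstream with 66.0, rank 739 of 15750. No other gene's window held that summit, unlike those of nuo-1 and nduf-2.2, and the peak stood among the 1447 strongest of both replicates.

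Further from the members, a pooled summit 2326 bp downstream of the lpd-5 5′ end had a signal of 70.98, rank 1802 of 30000, with 26.6 in replicate 1 and 46.2 in replicate 2. That position is past the 3′ end of the 764 bp lpd-5 gene and inside ZK973.9, a gene on the same strand. The signal there was higher than that of the summit in the lpd-5 window itself, 26.3. The C16A3.5 gene, a subunit gene with no summit in its own window, lies 100 bp after C16A3.6. The first gene of its run, nfx-1, 5393 bp upstream, had a thresholded summit, against 5.45% of all genes counted in that way. That summit lay 5581 bp upstream of C16A3.5 with a signal of 85.3, rank 1245 of 1447. The replicate 1 summit nearest to C16A3.5 was 6240 bp upstream.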
